A study of Mus musculus with 2 samples.

Results

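Osteoclast precursors read their surroundings through a few cell surface receptors, and 7 genes of that entry step were followed here: the receptor genes Csf1r, Tnfrsf11a, Tnfrsf1a and Tnfrsf1b, the adaptor genes Traf2 and Traf6, and the kinase gene Map3k7. They were taken by symbol from the 32544 genes of the count tables, and all 7 were found in both libraries. M-CSF, through the receptor tyrosine kinase CSF1R, keeps monocytes and macrophages alive and dividing, and RANKL, through RANK (the product of Tnfrsf11a), sets them on the path to osteoclasts. RANK signals mainly through the adaptor TRAF6, and the TNF receptors TNFR1 (Tnfrsf1a) and TNFR2 (Tnfrsf1b) use TRAF2. Both routes meet at the kinase TAK1 (Map3k7), upstream of NF-kB and the MAP kinases. TNFR1 carries a death domain and TNFR2 does not.

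The cells were murine bone marrow-derived monocytes (BMDMs) of mice 4 to 6 weeks old, collected after 24 h of RANKL. Control and mutant cells alike received M-CSF at 50 ng/ml and RANKL at 100 ng/ml. Single-cell RNA-seq with a 10x Genomics 3′ kit gave 1 library of the genotype CONTROL, with no alleles named in its label, and 1 of LysM-Cre;Arid1a fl/fl, called mutant below. The Cre of this strain is made by myeloid cells under control of Lyz2, and recombines the floxed Arid1a, a subunit gene of the BAF chromatin remodeling complex. How many animals went into a library was not given in the sources used here.

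Levels are given as CPM, counts per 1000000: UMIs (counted mRNA molecules) of a gene over all UMIs of the cells. Each molecule is read at its 3′ end and counted once, so that levels of different genes are not divided by transcript length. With 1 library per genotype no test between genotypes was possible. The 95% intervals (exact Poisson for levels, exact conditional for ratios, Clopper-Pearson for shares) cover counting error only.

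After cells with under 500 genes or over 10% mitochondrial UMIs were left out, the control kept 6269 cells (163618835 UMIs) and the mutant 5663 (131469887 UMIs). Medians were 23978 and 21734 UMIs per cell, and 8 barcodes were shared by the libraries. Arid1a stood at 51.9 CPM in the control and 20.4 CPM in the mutant library. The 3′ reads can still count transcripts of a recombined allele. All 8 macrophage markers were present in both libraries (summed, 11861 and 7754 CPM). Lyz2 alone made up most of both sums (10803 and 5432 CPM), and the rest of the sum was higher in the mutant library. Of the 7 osteoclast markers (263 and 112 CPM), the calcitonin receptor gene Calcr was at 0 in both. The 6 neutrophil markers summed to 275 CPM in control and 2063 CPM in mutant cells, the 4 class II markers to 28.7 and 115.8 CPM, and the 6 stromal markers to 6.17 and 11.6 CPM.

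Upstream sequence is shown for Tnfrsf1b and Tnfrsf11a, the receptor genes whose levels ran in opposite directions along the osteoclast transcripts of control cells. The RefSeq promoter table (GRCm38.p6) matched 6 of the 7 genes, Csf1r not among them. The 150 bases from 250 to 101 before the start are printed, at chr4:145246971-145247120 (minus strand) and chr1:105780473-105780622 (plus strand), with motif matches in capitals.
Tnfrsf1b: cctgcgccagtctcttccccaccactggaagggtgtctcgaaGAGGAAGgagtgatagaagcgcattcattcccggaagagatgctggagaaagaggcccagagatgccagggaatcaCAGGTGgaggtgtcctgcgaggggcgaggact
Tnfrsf11a: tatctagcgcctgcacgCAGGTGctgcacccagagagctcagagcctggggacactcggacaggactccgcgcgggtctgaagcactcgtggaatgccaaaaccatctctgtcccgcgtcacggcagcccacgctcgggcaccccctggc
The window was searched on both strands for GAGGAAG (an ETS core shared by PU.1, the myeloid master factor), the NF-kB consensus, TGANTCA (AP-1) and CANGTG (an E-box). Tnfrsf1b held the ETS core, starting 208 bases before the start, and an E-box at 132 bases. Tnfrsf11a held an E-box at 233 bases and no match to the other motifs. Over all 32851 promoters of the table, the same window held the ETS core in 6.06%, the E-box in 26.3%, the AP-1 motif in 4.0% and the NF-kB motif in 0.761%. Among the other members, Traf6 and Traf2 held an ETS core and Traf2 also an E-box, while Tnfrsf1a and Map3k7 matched none of the 4 motifs. GC content was 58.7% for Tnfrsf1b and 66.0% for Tnfrsf11a, against a median of 50.7% over the table. A match of letters is not a measured binding site.

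In the annotation of GRCm39, Csf1r lies on chromosome 18 (61229714 to 61266535, plus strand), Tnfrsf11a on chromosome 1 (105708358 to 105777170, plus strand) and Tnfrsf1a on chromosome 6 (125325566 to 125339632, plus strand). Tnfrsf1b occupies 144938938 to 144973477 on the minus strand of chromosome 4, which also holds Map3k7 (31963864 to 32051628, plus strand). Both adaptor genes are on chromosome 2, Traf2 at 25406097 to 25436987 on the minus strand and Traf6 at 101508519 to 101533545 on the plus strand. Csf1r shares 1461 exonic bases with Hmgxb3 on the other strand, and whether counting used the strand was not stated. Hmgxb3 was listed at 14.2 CPM in the control and 14.9 CPM in the mutant library. Tnfrsf1a shares 19 exonic bases with Plekhg6 (0 and 0.0076 CPM), and Tnfrsf1b shares 184 with a non-coding transcript, Gm68886, for which no level was taken.

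The TNFR2 gene Tnfrsf1b differed most between the libraries. It stood at 25.7 CPM in the control (24.97 to 26.5) and 104 CPM in the mutant library (102.0 to 105.5), a 4.03-fold ratio (3.89 to 4.17). The log2 ratio was 2.01, and 117 of the 8650 genes averaging 5 CPM or more had a higher one. Csf1r was at 256 CPM (253 to 258) against 402 CPM (398 to 405), a log2 ratio of 0.65 (0.63 to 0.67). The RANK gene Tnfrsf11a was at 69.6 and 88.9 CPM (log2 ratio 0.35, 0.32 to 0.39), and the TNFR1 gene Tnfrsf1a at 51.3 and 63.6 CPM (0.31, 0.26 to 0.35). All 4 receptor genes were therefore higher in the mutant library.

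**Figure D1:**
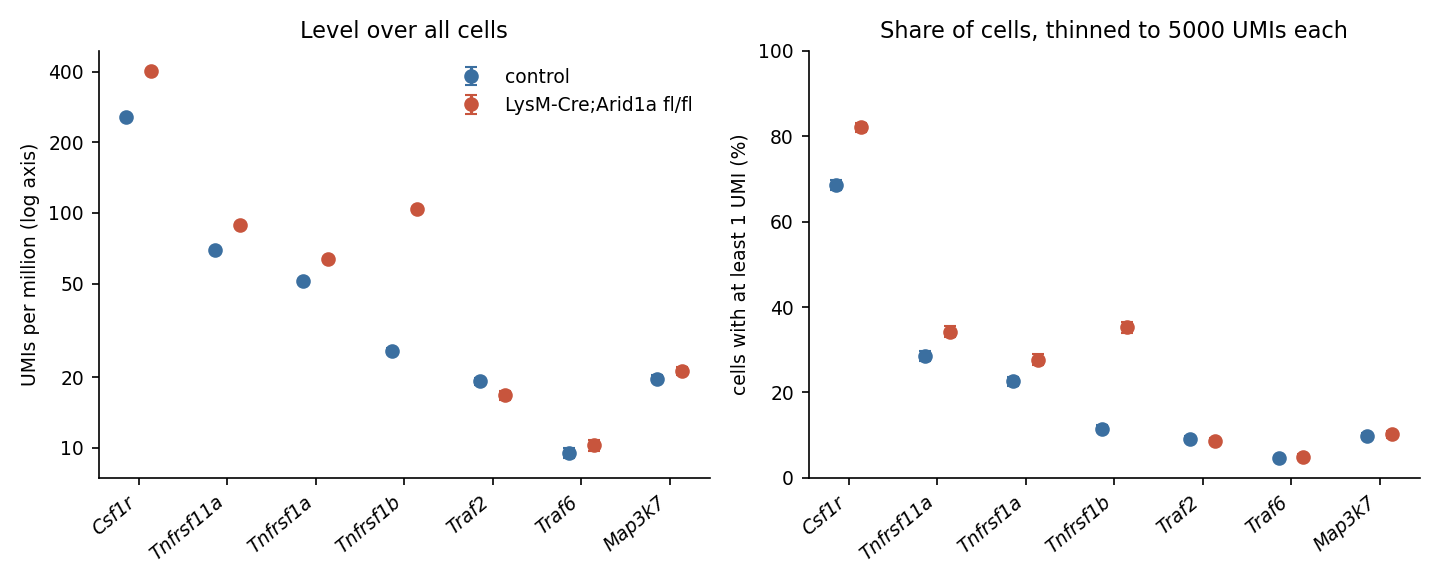
Levels of the 7 genes over all cells of each library (left, CPM, log axis) and the share of cells with at least 1 UMI after each cell was thinned to 5000 UMIs (right, percent); points are libraries and bars 95% counting intervals. Tnfrsf1b shows the widest gap, 25.7 against 104 CPM and 11.5% against 35.2% of cells.

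Downstream of the receptors the libraries were closer. Traf2, the adaptor of the TNF receptors, stood at 19.2 CPM in the control and 16.7 CPM in the mutant library (log2 ratio -0.20, -0.28 to -0.12), the only member lower in the mutant. Traf6, the adaptor of RANK, was at 9.47 and 10.3 CPM (0.12, 0.0098 to 0.22), and Map3k7 at 19.6 and 21.2 CPM (0.11, 0.036 to 0.18). The levels of Traf6 in the libraries had overlapping intervals (up to 9.95 CPM in the control, from 9.72 CPM in the mutant). When totals left out mitochondrial and ribosomal protein genes, every log2 ratio moved by -0.11 and those of Traf6 and Map3k7 came to 0.0073 and 0.00099. In cells of 5000 to 15000 UMIs, the ratios of Traf6 and Traf2 turned to -0.14 and 0.19. Traf2 was at -0.031 in cells of 15000 to 25000 UMIs and -0.40 in cells of 25000 or more. With every cell weighted alike it came to -0.028.

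A log2 ratio of 0.5 was taken as the size to count. Of the 7 genes, Tnfrsf1b and Csf1r passed it upwards and 0 passed it downwards, beside 16.1% and 8.15% of the 8650 genes. The median of the members was 0.31, and that of the 8650 genes 0.052. Of the genes past the size, 66.4% were higher in the mutant by library totals and 50.0% with mitochondrial and ribosomal protein genes taken out of the totals. Tnfrsf1b (1.90 to 1.95) and Csf1r (0.54 to 0.59) stayed past it under the 3 other scalings.

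In the control, the order of levels was Csf1r, Tnfrsf11a, Tnfrsf1a, Tnfrsf1b, Map3k7, Traf2 and Traf6, of which the neighbours Map3k7 and Traf2 had overlapping intervals. In the mutant library Tnfrsf1b moved up to second place, ahead of Tnfrsf11a. The 2 TNF receptors exchanged ranks: 0.501 UMIs of Tnfrsf1b were counted per UMI of Tnfrsf1a in control (0.483 to 0.520) and 1.63 in mutant cells (1.59 to 1.68). Tnfrsf11a per UMI of Csf1r went from 0.272 (0.266 to 0.278) to 0.221 (0.217 to 0.226). Traf2 per UMI of Traf6 was 2.03 in control (1.91 to 2.16) and 1.63 in mutant cells (1.52 to 1.74). These ratios are taken within a library and do not depend on its total.

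Shares of positive cells were compared in 6101 control and 5312 mutant cells of at least 5000 UMIs, each thinned to 5000. Tnfrsf1b was detected in 11.5% of control (10.7 to 12.3) and 35.2% of mutant cells (33.96 to 36.5), Csf1r in 68.6% and 82.1%, Tnfrsf11a in 28.5% and 34.2%, and Tnfrsf1a in 22.6% and 27.7%. Traf2 (9.06% and 8.64%), Map3k7 (9.80% and 10.2%) and Traf6 (4.59% and 4.99%) had overlapping intervals. Without thinning, Csf1r was detected in 95.7% of control and 94.1% of mutant cells. As a background, 75 neutrophil-like mutant cells (at least 1% of UMIs from the neutrophil markers, a type that should lack Csf1r and Tnfrsf11a) had Csf1r in 24% and Tnfrsf11a in 6.67%, at a median of 10828 UMIs against 22412 over all the thinned mutant cells. In the control, 2 of 17 such cells had Csf1r and 0 had Tnfrsf11a, which allows a share of up to 17.6% (3 counts of 17, median 8616 UMIs against 24266). Of these gated cells, 46 of the 75 mutant and 9 of the 17 control cells were cycling as defined below. Whether they transcribe Csf1r themselves was not tested, so the background is a rough one. Without the neutrophil, stromal and class II gates the log2 ratio was 2.02 for Tnfrsf1b and 0.66 for Csf1r.

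Receptors were also counted together in the thinned cells. None of the 4 receptor genes was detected in 15.8% of control and 6.55% of mutant cells, and all 4 in 0.623% (0.441 to 0.854) and 3.24% (2.78 to 3.75). Tnfrsf11a and Csf1r were found together in 19.8% of control cells, where the product of their shares gives 19.6%, and in 28.6% of mutant cells (28.1%). Tnfrsf1a and Tnfrsf1b were found together in 2.88% (2.60% by the product) and 10.2% (9.75%). Tnfrsf11a and Tnfrsf1b shared 2.97% of control (3.27%) and 12.2% of mutant cells (12.1%). All 6 products lay within the interval of the observed share.

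Progress toward osteoclasts was read from the UMIs over Ctsk (cathepsin K), Mmp9 (a matrix protease) and Dcstamp (the fusion protein DC-STAMP), in cells thinned to 5000 UMIs: none is 0, low is 1 or 2 and high is 3 or more. The control held 4805, 918 and 378 cells of these states, and the mutant library 4932, 323 and 57. Levels use all UMIs of the cells. Doublet-scored barcodes were 4.23% of high control cells and 5.26% of high mutant cells.

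In control cells RANK and TNFR2 transcripts ran in opposite directions. Tnfrsf11a stood at 64.5, 80.9 and 102 CPM in cells with none, low and high osteoclast transcripts, a log2 ratio of 0.66 for high over none (0.57 to 0.75). Tnfrsf1b stood at 26.9, 26.1 and 11.4 CPM, a log2 ratio of -1.23 (-1.50 to -0.98). In finer classes, Tnfrsf1b was at 14.8 CPM in the 223 cells with 3 to 5 osteoclast UMIs and at 7.06 CPM (4.89 to 9.86) in the 155 cells with 6 or more, where Tnfrsf11a reached 106 CPM. Tnfrsf1b per UMI of Tnfrsf11a was thus 0.417 in cells with none and 0.112 in high cells (0.092 to 0.134).

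The other receptor genes were lower in high control cells, and the adaptor genes higher. Csf1r was at 264, 236 and 214 CPM in none, low and high cells (-0.30, -0.36 to -0.24), and Tnfrsf1a at 52.7, 50.3 and 39.1 CPM (-0.43, -0.57 to -0.29). Traf6 was at 8.96, 10.3 and 13.4 CPM (0.58, 0.33 to 0.83), and Traf2 at 18.4, 20.7 and 25.1 CPM (0.45, 0.27 to 0.63). Map3k7 did not differ beyond counting error (19.4 and 20.8 CPM, 0.11, -0.094 to 0.30). Summed over cells, high control cells thus had a lower level of Csf1r and a higher level of Tnfrsf11a than cells with none. UMIs of Tnfrsf11a per UMI of Csf1r were 0.245 in cells with none and 0.477 in high cells (0.444 to 0.512).

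In the control library Tnfrsf11a and Traf6 passed 0.5 upwards, beside 10.2% of 8505 genes, and Tnfrsf1b passed it downwards, beside 12.4%. The median of the members was 0.11, beside 0.064 over all genes. Traf6 stayed past the size in 6 of 14 alternatives, and Tnfrsf11a and Tnfrsf1b each in 13. With edgeR's TMM factors Traf6 came to 0.49 and Tnfrsf1a to -0.52. Of the genes past the size, 45.1% were higher in high cells by library totals, 32.0% with TMM factors and 59.0% with mitochondrial and ribosomal protein genes taken out. The signs held within the cycle: for high over none, Tnfrsf11a was at 0.59 in non-cycling and 0.75 in cycling control cells, and Tnfrsf1b at -1.15 and -1.34. The sign of the ratio was the same in all 14 alternatives for each member but Map3k7. Tnfrsf1b ran from -1.88, where 5 UMIs were needed for the high state, to -0.31, where 1 was.

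**Figure D2:**
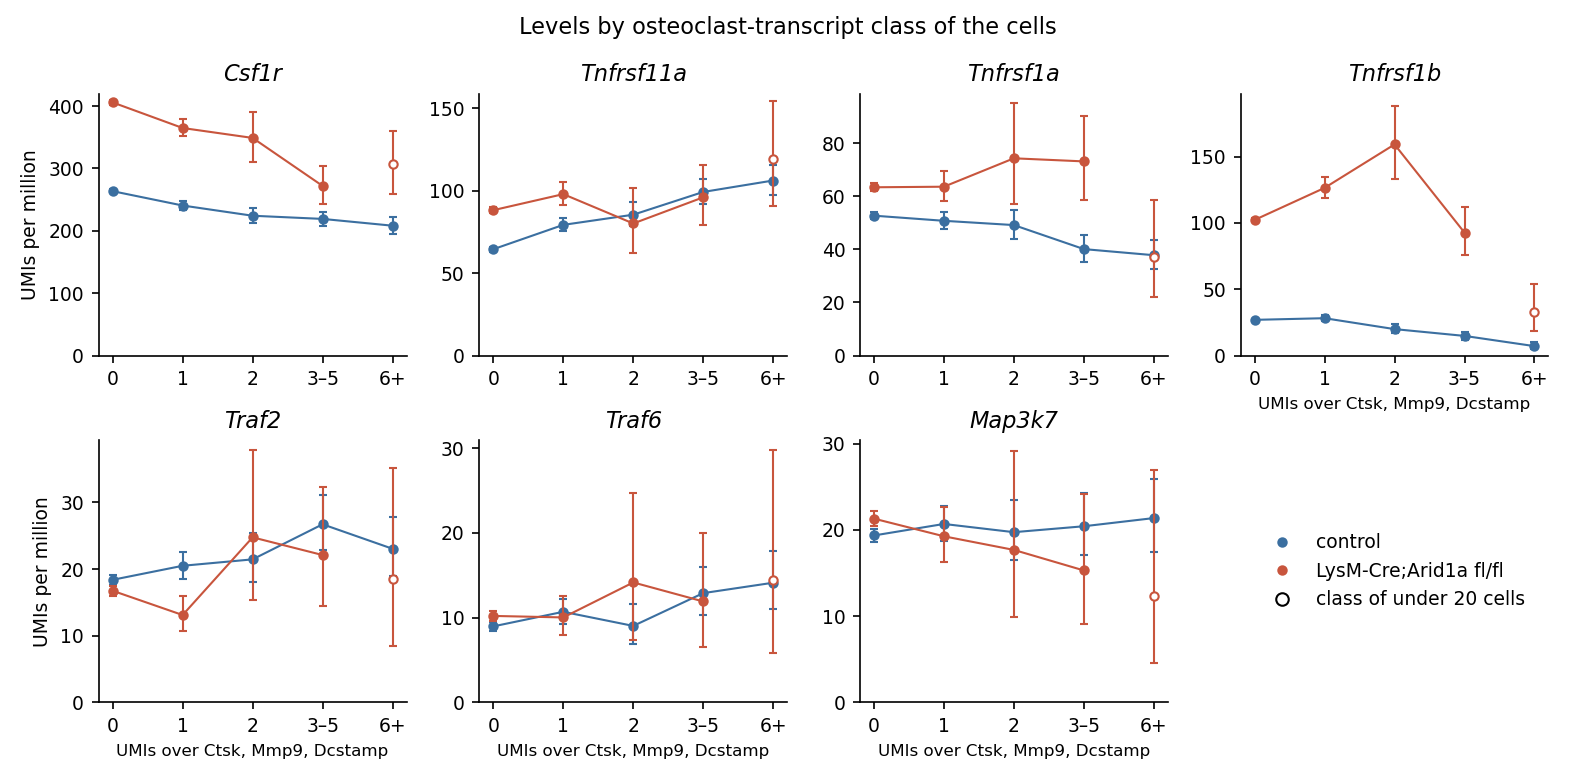
Levels (CPM, each panel with its own axis from 0) of the 7 genes in cells grouped by their UMIs over Ctsk, Mmp9 and Dcstamp, with 95% counting intervals; open points are classes of under 20 cells. In control cells Tnfrsf11a goes from 64.5 to 106 while Tnfrsf1b goes from 26.9 to 7.06.

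In the mutant library the same comparison rested on 57 high cells. Csf1r was at 406, 363 and 282 CPM in none, low and high cells (log2 ratio of high over none -0.52, -0.66 to -0.39). Tnfrsf11a was at 88.2, 96.2 and 103 CPM (0.22, -0.0048 to 0.44). High cells of the libraries were thus level for the RANK gene (102 and 103 CPM), and cells with none were not (64.5 and 88.2 CPM). The high states were not matched in make-up: 155 of 378 control and 16 of 57 mutant cells held 6 or more osteoclast UMIs. Acp5, an osteoclast marker not used to set the state, stood at 833 and 591 CPM in high cells. In the 16 mutant cells Tnfrsf11a was at 119 CPM (90.7 to 154) and Tnfrsf1b at 33.0 CPM (18.8 to 53.5). Tnfrsf1b was at 102, 130 and 75.2 CPM, higher in low than in none cells (0.34, 0.25 to 0.43) and lower in high cells (-0.44, -0.71 to -0.19). That last sign depended on where the line was drawn: 0.24 with 1 UMI needed, 0.019 with 2 and -1.19 with 5. Intervals spanned 0 for Tnfrsf1a (-0.018), Traf2 (0.33), Traf6 (0.31) and Map3k7 (-0.56). Csf1r and Map3k7 passed 0.5 downwards, beside 12.3% of 8799 genes, and 0 passed it upwards, beside 11.0%. Of 14 alternatives, Csf1r was past the size in 4 (range -0.59 to -0.21) and Map3k7 in 8 (-0.94 to -0.20), while Tnfrsf1b passed it downwards in 4, TMM factors among them (-0.51). The members had a median of -0.018, beside 0.024 over all genes. Arid1a stood at 32.5 CPM in high and 20.2 CPM in none cells of the mutant library, and its part in these values was not tested.

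The slope along the osteoclast transcripts was compared between libraries as the difference of the log2 ratios, mutant minus control. It was -0.44 for Tnfrsf11a (-0.68 to -0.21), 0.79 for Tnfrsf1b (0.43 to 1.15), 0.41 for Tnfrsf1a (0.10 to 0.73), -0.23 for Csf1r (-0.37 to -0.082) and -0.67 for Map3k7 (-1.28 to -0.056). For Traf2 (-0.12) and Traf6 (-0.27) the interval spanned 0. The difference for Map3k7 rests on 24 UMIs in high mutant cells. The high states of the libraries differed in make-up, as given above, and the part of this in the differences was not tested. Over 12 alternatives the difference ran from 0.054 (cells thinned to 2000 UMIs) to 1.28 for Tnfrsf1b, from 0.076 (5 UMIs needed) to 0.43 for Tnfrsf1a and from -0.61 to -0.24 for Tnfrsf11a. For Csf1r it turned sign in 2 of the 12, to 0.11 with Acp5 added to the osteoclast genes.

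**Figure D3:**
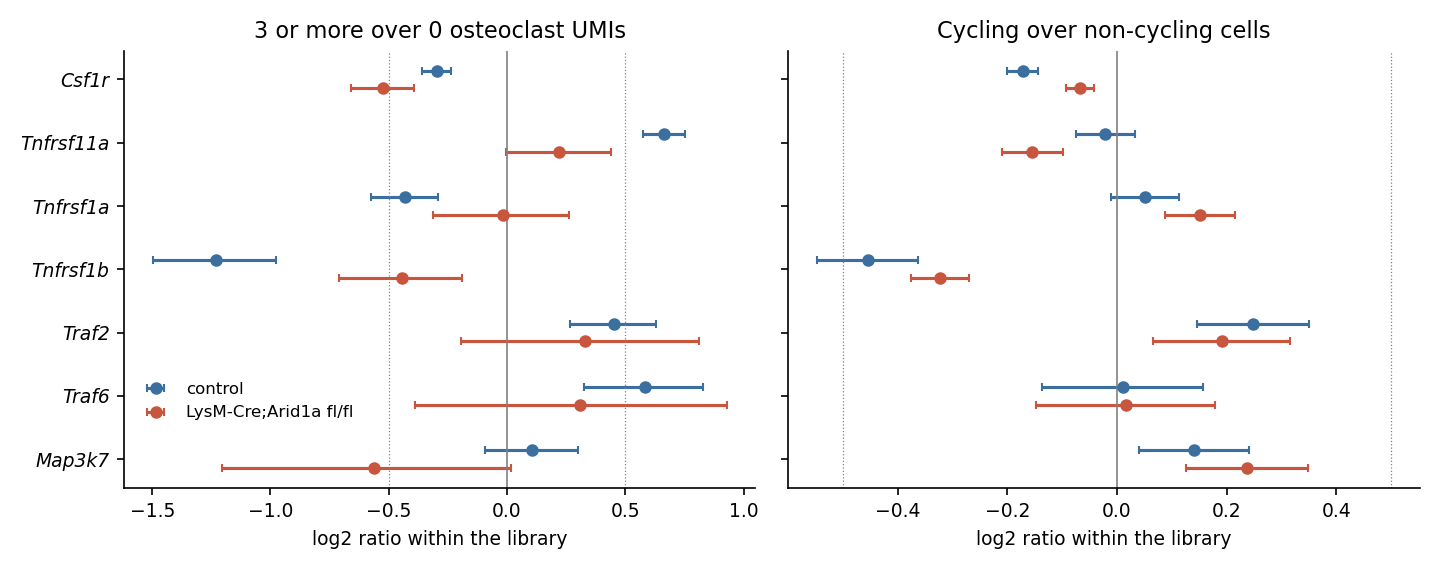
Log2 ratios within each library of cells with 3 or more over cells with 0 osteoclast UMIs (left) and of cycling over non-cycling cells (right), with 95% counting intervals; dotted lines mark 0.5 in either direction. On the left, Tnfrsf11a is at 0.66 and Tnfrsf1b at -1.23 in the control library. On the right no point reaches a dotted line, though the bar of Tnfrsf1b in the control (-0.55 to -0.36) crosses 1 of them.

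Cycling cells were those in which Aurka, Cdk1, Mki67 and Top2a summed to 3 or more UMIs after thinning, 2381 of 6101 in the control and 1763 of 5312 in the mutant library. None of the 7 genes passed 0.5 between cycling and non-cycling cells in either library, beside 6.30% of genes upwards and 0.998% downwards in the control and 7.66% and 1.19% in the mutant. Tnfrsf1b in the control was nearest and passed it in 6 of 12 alternatives, among them TMM factors (-0.50) and unthinned states (-0.68). It stood at 21.2 CPM in cycling and 29.1 CPM in non-cycling control cells (-0.46, -0.55 to -0.36), and 8394 of 8513 genes had a higher ratio. In the mutant library it was at 89.4 and 112 CPM (-0.32, -0.38 to -0.27). Csf1r was also lower in cycling cells, by small amounts (-0.17 in control and -0.068 in mutant cells). Traf2 was higher in cycling cells of both libraries (0.25 and 0.19), as was Map3k7 (0.14 and 0.24). Traf6 did not differ beyond counting error in either (0.011 and 0.016). Tnfrsf11a (-0.15) and Tnfrsf1a (0.15) had intervals apart from 0 in the mutant library alone, and the difference between libraries was -0.13 (-0.21 to -0.056) and 0.10 (0.011 to 0.19). Both changed sign there when states were set on unthinned counts.

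Since the libraries held different mixtures of states, mutant and control cells were also set against each other within the 6 states. Tnfrsf1b was higher in mutant cells in each of them, from 109.6 against 30.2 CPM in non-cycling cells without osteoclast transcripts (log2 ratio 1.86, 1.79 to 1.93) to 59.1 against 8.86 CPM in cycling high cells (2.74, 2.10 to 3.37). The last value rests on 43 and 45 UMIs. The smallest states of the mutant library held 92 cells (cycling low), 37 (non-cycling high) and 20 (cycling high). Doublet-scored barcodes were 16.3%, 2.70% and 10% of these. Csf1r was higher in mutant cells of all 6 states as well, between 0.33 (0.14 to 0.52) in non-cycling high cells and 0.69 (0.59 to 0.80) in cycling low cells. Tnfrsf1a was higher in the 6 states too, from 0.24 (0.18 to 0.31) to 0.73 (0.30 to 1.14). Within the high states the cells were not fully matched, since control cells more often held 6 or more osteoclast UMIs.

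Tnfrsf11a did not follow the other receptors across the states. It was higher in mutant cells in both states without osteoclast transcripts (0.48, 0.42 to 0.53 and 0.39, 0.32 to 0.46) and in non-cycling low cells (0.37, 0.23 to 0.52). In cycling low cells it was at 80.3 and 81.3 CPM (-0.017, -0.23 to 0.19, and 0.069 without doublet-scored barcodes). In high cells it was at 98.5 and 98.9 CPM (non-cycling) and 109 and 106 CPM (cycling). The intervals in high cells, -0.34 to 0.31 and -0.33 to 0.37, leave room for differences of either sign. Traf2 was lower in mutant cells of all 6 states, with intervals below 0 in non-cycling low cells (-0.68, -1.09 to -0.28) and cycling cells with none (-0.17, -0.30 to -0.035). Traf6 had an interval above 0 in non-cycling cells with none (0.23, 0.073 to 0.38), and Map3k7 in cycling cells with none (0.22, 0.098 to 0.35).

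**Figure D4:**
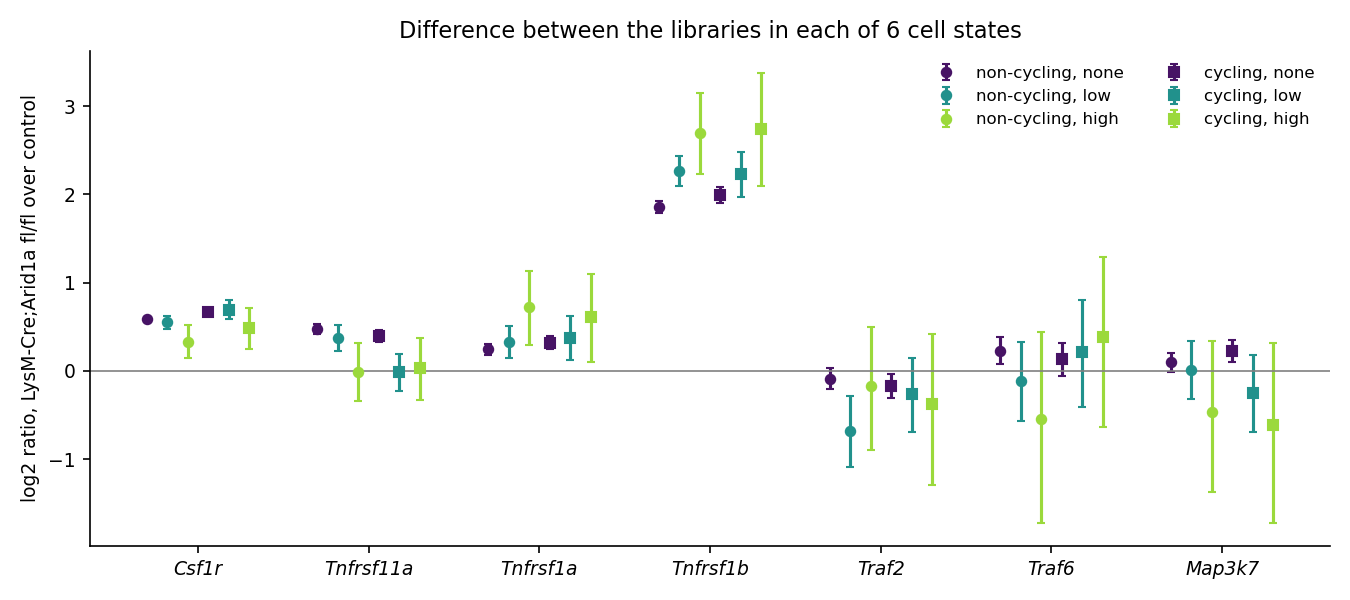
Log2 ratio of mutant over control (y axis) for each gene in the 6 states, circles for non-cycling and squares for cycling cells, coloured by osteoclast transcripts (none, low or high), with 95% counting intervals. Tnfrsf1b lies between 1.86 and 2.74 in every state, and Tnfrsf11a lies at 0.48 and 0.39 without osteoclast transcripts and near 0 in high cells.

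Around these 7 genes, 59 further genes of the pathways were listed, of which 49 averaged 5 CPM or more. Of these, 16 were past 0.5 upwards in the mutant library and 2 downwards, with a median log2 ratio of 0.30. Without mitochondrial and ribosomal protein genes in the totals, 10 were past it upwards and 2 downwards (median 0.19). The kinases below then had 1 in place of 3 upwards and the TRAF partners 2 in place of 4. Over all genes, 1157 were then past it in each direction, in place of 1391 upwards and 705 downwards. Ligands were scarce. Tnf was the 1 ligand gene above 5 CPM, at 6.96 CPM in the control and 12.5 CPM in the mutant library (0.84, from 1138 and 1637 UMIs). Il34, the other ligand of CSF1R, was counted in 269 UMIs of the control and 16 of the mutant library (1.64 and 0.122 CPM). In control cells Il34 was higher in high than in none cells (log2 ratio 1.77, 1.25 to 2.27) and Tnf was lower (-1.13, -1.63 to -0.66). Csf1, which encodes M-CSF, gave 170 and 168 UMIs, Lgr4, the gene of another RANKL receptor, 30 and 27, and Lta 7 and 4. Tnfsf11, the RANKL gene, was at 0 in both, and its decoy Tnfrsf11b gave 1 and 21 UMIs.

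Among the partners of the TRAF adaptors and the ubiquitin enzymes around them, 4 of 17 genes were past 0.5 upwards and 0 downwards, with a median of 0.35. The highest were Birc2 (0.96), a ubiquitin ligase recruited by TRAF2, and Sqstm1 (0.90), which encodes the scaffold p62, at 179 and 335 CPM. The lowest were Tradd (-0.31), the adaptor of TNFR1, and Ube2n (-0.23), the ubiquitin-conjugating enzyme used by TRAF6. Of the TAK1, IKK and MAP kinase genes, 3 of 14 were past 0.5 upwards and 1 downwards (median 0.17). Map3k14, the kinase NIK of the noncanonical NF-kB route, led with 0.90 (5.71 and 10.7 CPM), followed by Mapk14 (p38α, 0.56). Ikbkg, the regulatory subunit NEMO of the IKK complex, was lowest with -0.62 (16.8 and 10.9 CPM), then Map2k3 (-0.35).

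Genes acting next to CSF1R were past 0.5 upwards in 8 of 17 cases and downwards in 1, with a median of 0.45. Without mitochondrial and ribosomal protein genes in the totals, 6 were past it upwards and 1 downwards (median 0.34). Src, the kinase that osteoclasts need to resorb bone, was lowest (-0.99, 15.7 and 7.90 CPM). Vav3, a guanine nucleotide exchange factor of osteoclasts, was at 0.85 (18.6 and 33.5 CPM), and Grb2, an adaptor of receptor tyrosine kinases, at 0.12. In control cells the log2 ratio of high over none was 2.39 for Src (2.26 to 2.53), 0.23 for Grb2 and -0.080 for Vav3. High cells were 6.20% of control and 1.07% of mutant cells, and the part of this mixture in the ratios over all cells was not tested. The counts by library totals stand beside the same 16.1% and 8.15% of all genes. Those without mitochondrial and ribosomal protein genes stand beside 1157 genes in each direction, in place of 1391 upwards and 705 downwards.

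**Figure D5:**
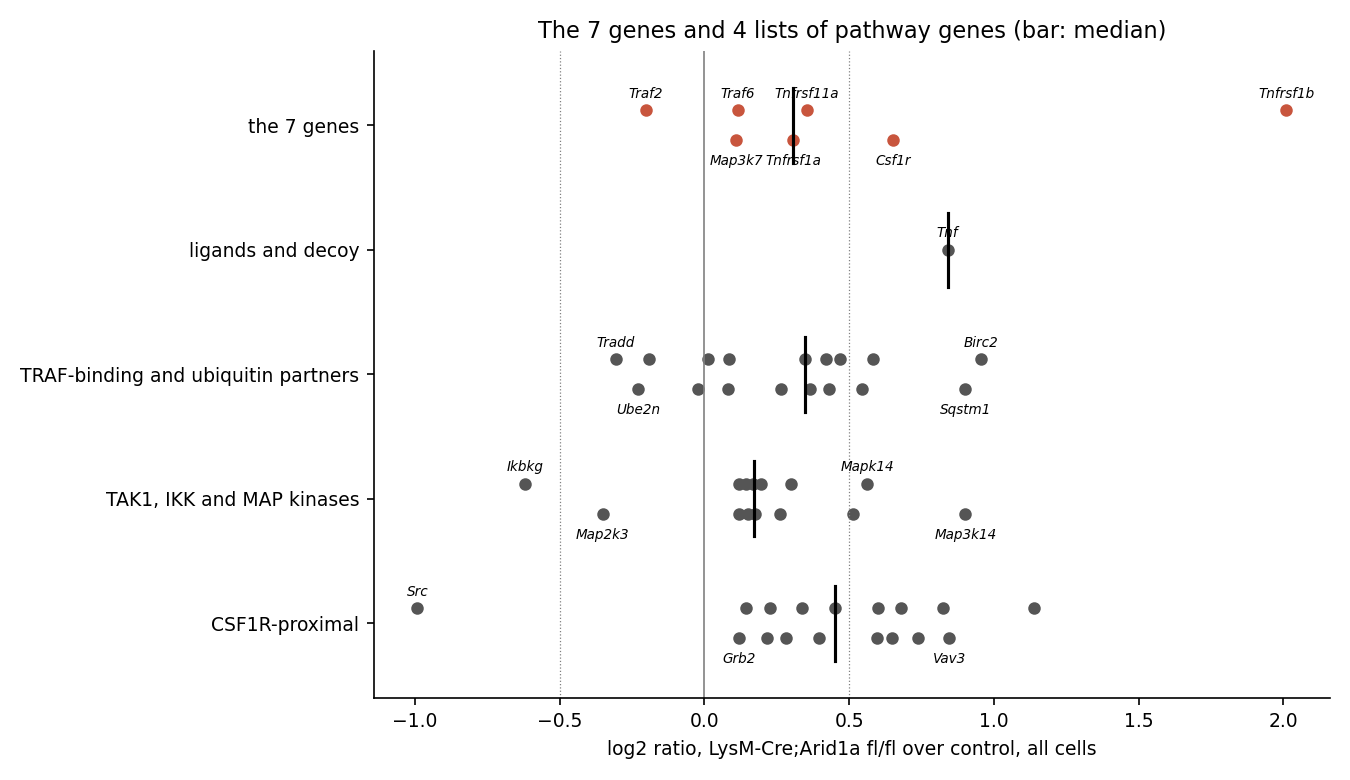
Log2 ratio of mutant over control over all cells (x axis) for the 7 genes and for the genes of 4 pathway lists averaging 5 CPM or more; bars are medians, dotted lines mark 0.5, and genes near the ends of each list are named. Tnfrsf1b at 2.01 lies beyond every gene of the lists.

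Genes of like pattern were sought over the 12 groups of cells formed by library, cycling and osteoclast-transcript state, among 8670 genes, by Pearson's r of log2(CPM + 1). The groups share libraries and differ in depth, so r is a description. Tnfrsf1b ran closest to Gch1 (r = 0.996), which encodes the first enzyme of tetrahydrobiopterin synthesis, Slfn2 (0.994) and the integrin gene Itgb2 (0.994). Tnfrsf11a was closest to Spi1 (0.949), the gene of PU.1, the proton pump gene Atp6v1c1 (0.916) and Mef2d (0.914). Csf1r ran close to Svbp (0.982) and Clec12a (0.975), and Tnfrsf1a to Cadm1 (0.980), the inhibitory Fc receptor gene Fcgr2b (0.974) and Sp100 (0.973). For the adaptors and the kinase the likeness ran over smaller differences: Traf2 was closest to Ptcd3 (0.949), Cpsf4 (0.939) and Net1 (0.930), Traf6 to Gfpt1 (0.961), Cox5b (0.924) and Zfp251 (0.920), and Map3k7 to Kif16b (0.931), Icmt (0.927) and Metap1d (0.921). Their levels in the high mutant groups rest on few UMIs. Non-cycling and cycling high cells gave 21 and 14 for Traf2, 9 and 12 for Traf6, and 14 and 10 for Map3k7.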

How the data were processed

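BMDM single-cell libraries, 1 per genotype, were grouped by the genotype label. The authors deposited raw UMI counts per gene and barcode, which the file headers assign to Cell Ranger 6.1.0; GRCm39 is the build in the submitters' processing notes. Aggregation is named in the study's methods, and whether these counts precede it was not stated. The members, pathway lists and tests were chosen with earlier results of these data known.

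Cells with at least 500 genes and at most 10% mitochondrial UMIs were kept, and doublets were kept in the main values. The score was the fraction of simulated pairs (2 per barcode) among 50 neighbours over 30 components of 2000 variable genes; the top 333 control and 275 mutant barcodes (0.8% per 1000 barcodes) were left out as an alternative. States were set after thinning each cell to exactly 5000 UMIs drawn without replacement, which left out 168 control and 351 mutant cells. Counts were summed over cells and divided by their total. Ratios and intervals were computed with numpy 2.4.6 and scipy 1.17.1 in Python 3.11.15, and scaling factors with edgeR 4.0.16 and DESeq2 1.42.0 in R 4.3.3. No count model was fitted, because there is 1 library per genotype. The script was tested on simulated data. The gates for neutrophil-like (1% of UMIs), stromal (0.1%) and class II (0.1%) cells were set after the marker sums were seen.

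Named genes were the 7 members, all ligands, the 2 highest and 2 lowest genes of each other list, the 3 genes nearest to each member over 12 groups, and Arid1a; Hmgxb3, Plekhg6 and Gm68886 were added as overlapping genes. Some genes that this rule names are not reported here.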

Additional observations from a re-analysis of the deposited data

How the results depend on the processing

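No paired analysis was possible because each genotype has 1 library. For the same reason no library could be left out, and every interval covers counting error only. Of 490 values of single members under the alternatives, 394 stayed within the counting interval of the reported value. The sign turned in 34, of which 8 concern a reported value whose interval lay apart from 0 (below) and the rest one whose interval spanned 0. Of 105 medians and gene counts, 25 moved. The median log2 ratio of the 7 genes between genotypes (0.31) was 0.24 with TMM factors, 0.22 with median-of-ratios factors, 0.20 without mitochondrial and ribosomal protein genes, 0.35 with cells weighted alike and 0.26 in cells of 25000 or more UMIs; this last range of depth, like those of 5000 to 15000 and 15000 to 25000 UMIs and the osteoclast state without Mmp9, was chosen after seeing the data. In high over none mutant cells the median of -0.018 was -0.41 with 5 UMIs needed. The causes of these shifts were not tested.

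Signs changed for Traf6 (-0.14) and Traf2 (0.19) between genotypes in cells of 5000 to 15000 UMIs. Tnfrsf1b in high over none mutant cells came to 0.15 with unthinned counts, 0.24 with 1 UMI needed and 0.019 with 2. Unthinned states gave 0.017 for Tnfrsf11a and -0.00041 for Tnfrsf1a in cycling over non-cycling mutant cells. The difference in the share of cells with Csf1r was -1.66 percentage points without thinning, where most cells of both libraries have a UMI.

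Counts of genes past 0.5 moved over 1.5 times mainly with the floor on the mean, which sets how many genes are counted. With a mean of 20 CPM, genes higher and lower numbered 806 and 438 between genotypes, 465 and 523 in high over none control cells, 422 and 493 in such mutant cells, 263 and 27 in cycling control cells and 344 and 48 in cycling mutant cells. With a mean of 1 CPM, 1611 were lower in high control cells, 1687 higher and 1699 lower in high mutant cells, and 254 and 258 lower in cycling control and mutant cells. Without mitochondrial and ribosomal protein genes, 1157 were lower between genotypes and 1371 higher in high control cells. In cycling mutant cells, 159 were lower with TMM and 165 with median-of-ratios factors.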
